A study of Mus musculus with 12 samples.

Results

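The epithelial membrane protein family in mouse brain was described from 4 genes, Emp1, Emp2, Emp3 and Pmp22, whose counts were taken by gene symbol from a table of 39756 genes. All 4 had counts in all 12 mice and were among the 17558 genes with enough counts to be tested. They were singled out because earlier results from these mice had shown differences in them, so their own differences are given as levels and sizes, and counts of members passing a threshold stand only beside the share of all genes that passed it. RNA came from the ischemic hemisphere of mice labelled C57BL/6J, male by the study's methods, with 4 mice in each of 3 groups. The Sham group had the operation without occlusion and received saline. The Vehicle group had transient middle cerebral artery occlusion (tMCAO), a temporary block of that artery followed by reopening to give ischemia/reperfusion, and received saline. The LJP group had tMCAO and received Laminaria japonica polysaccharide (LJP), a sulfated polysaccharide of a brown alga, which the methods give orally before and after the operation. The Sham group received no LJP, so an LJP difference without tMCAO was not measured. No batch label separates the 12 mice, and the labels give no age, dose or sampling time.

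The family consists of small proteins that cross the membrane 4 times, and it belongs to the larger group that also holds the claudins of tight junctions. PMP22 is a structural protein of compact myelin in peripheral nerve, and its gene dosage is known from inherited neuropathies. EMP1 is induced in reactive astrocytes, where it is counted among the genes labelled A2 in the literature. EMP2 is abundant in lung epithelium and acts on integrins, focal adhesion kinase and caveolins, and EMP3 is found in leukocytes and glioma cells. EMP proteins have also been described as partners of the P2X7 receptor, an ATP-gated channel of microglia and macrophages. In bulk tissue, a larger number of cells that express a gene and more RNA per cell cannot be told apart.

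The positions in the table were those of mouse build GRCm38. Emp1 (gene ID 13730) spans chr6:135362550-135383173 on the plus strand. Emp2 (13731) spans chr16:10281749-10313968 on the minus strand. Emp3 (13732) spans chr7:45918023-45921426 on the minus strand, and Pmp22 (18858) spans chr11:63128982-63159547 on the plus strand. No gene in the table overlapped any of the 4. Emp3 had the closest neighbours. Ccdc114, 1733 bases from the 5′ end of Emp3, was higher in Vehicle than in Sham mice by 0.80 on the log2 scale (edgeR quasi-likelihood test, adjusted p = 0.0135), and Tmem143, 610 bases from its 3′ end, had a log2 fold change of -0.29 (adjusted p = 0.166). The other neighbouring genes of the members had at most 17 counts in any mouse.

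Promoters are shown for Emp1 and Emp3, the members with the widest differences between groups, and for Emp2, the member with the smallest. Sequences are from RefSeq (GRCm38.p6) and run 5′ to 3′ on the strand of the gene up to the base before an annotated start. RefSeq gave 2 windows for Emp1, 1 for Emp2, 2 for Emp3 and 4 for Pmp22. Capitals mark matches, on either strand, to 5 motifs. AP-1 sites, bound by Fos and Jun proteins, were searched as TGANTCA. STAT sites were searched as TTCNNNGAA. The core of hypoxia response elements was searched as ACGTG, the site of TEAD factors as GGAATG, and the TATA box of core promoters by the letters TATAAA. The Emp1 sequence is chr6:135362708-135362930, which ends before the start at 135362931 and has its last 27 bases in an exon of another Emp1 transcript. The Emp3 sequence is chr7:45921427-45921676, and the Emp2 sequence is chr16:10313969-10314218.
Emp1: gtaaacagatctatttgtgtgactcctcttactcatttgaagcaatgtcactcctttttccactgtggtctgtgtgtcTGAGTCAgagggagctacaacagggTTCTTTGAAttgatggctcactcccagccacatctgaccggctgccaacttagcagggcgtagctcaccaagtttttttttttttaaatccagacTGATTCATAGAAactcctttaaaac
Emp3: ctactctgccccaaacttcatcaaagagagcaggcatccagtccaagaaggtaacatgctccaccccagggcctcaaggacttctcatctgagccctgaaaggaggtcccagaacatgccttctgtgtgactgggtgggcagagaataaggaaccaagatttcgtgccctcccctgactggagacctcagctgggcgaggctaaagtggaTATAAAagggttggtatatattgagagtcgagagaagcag
Emp2: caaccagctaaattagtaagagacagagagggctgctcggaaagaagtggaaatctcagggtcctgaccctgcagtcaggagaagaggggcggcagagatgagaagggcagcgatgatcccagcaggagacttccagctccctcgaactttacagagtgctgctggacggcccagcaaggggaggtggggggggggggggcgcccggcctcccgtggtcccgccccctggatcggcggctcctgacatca
The Emp1 sequence held AP-1 matches at -145 (chr6:135362786-135362792) and -25 (chr6:135362906-135362912), and STAT matches at -120 and -22, the last of which overlapped the second AP-1 match. Of 32851 RefSeq promoter windows of 300 bases, 7.81% held an AP-1 match and 0.46% held at least 2, and for STAT these shares were 8.3% and 0.457%. The Emp3 sequence held 1 TATA match at -40, which 13.6% of windows had. The Emp2 sequence, with 62.8% G and C against 43% in Emp1, held none of the 5 motifs. Pmp22 held a TEAD match at -173 in 1 of its 4 windows and a hypoxia core at 37 bases after the start in another, found in 14.7% and 19.6% of all windows. The second Emp1 window, at the start 135367493, and the other Emp3 window held none of the 5 motifs, and the windows printed for these genes are those that held a match. These are letter matches only, and gene counts do not tell which start was used.

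Total counts per mouse were 18024359 to 19878367 in Sham mice, 18317859 to 22216315 in Vehicle mice and 17960353 to 21856541 in LJP mice, and a floor of 3 counts per mouse was 0.129 to 0.173 CPM (counts scaled to the normalized library total, counting error only). Neuron markers summed to 3940 to 7020 CPM and homeostatic astrocyte markers to 2840 to 4790 CPM in the 12 mice, so the defining markers of brain tissue were present. Astrocyte markers were 2896 and 2836 CPM in Vehicle mice 1 and 2 against 4271 and 4357 CPM in Vehicle mice 3 and 4, and neuron markers were 5233 and 3936 CPM against 6135 and 5935 CPM. The libraries of Vehicle mice 1 and 2 stood apart from those of Vehicle mice 3 and 4. Summed neutrophil markers were 165 and 40.4 CPM in mice 1 and 2 against 0.753 and 5.54 CPM in mice 3 and 4. Choroid plexus markers were 25.2 and 20.2 CPM against 534 and 492 CPM, and they ran from 32.7 to 916 CPM in the Sham mice. In LJP mice 1 to 4 they were 27, 28, 390.3 and 23.8 CPM, with mouse 3, the highest of its group in Emp1 and Emp3, standing apart. Member values are given without mouse 1 and without mouse 2 beside those of all mice.

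Emp1 showed the widest difference of the family. It was at 1.15, 1.58, 1.86 and 1.55 CPM in Sham mice 1 to 4, from 20 to 34 counts. In Vehicle mice 1 to 4 it was at 76.9, 120.1, 13.7 and 24.4 CPM, and in LJP mice 1 to 4 at 10.7, 6.84, 17.4 and 6.85 CPM. Every Vehicle and LJP mouse was above every Sham mouse, whereas LJP mouse 3 lay above Vehicle mouse 3, so that the Vehicle and LJP groups overlapped. Of all tested genes, 20.7% had every Vehicle mouse above every Sham mouse and 12.8% had every LJP mouse above every Sham mouse. The means were 1.54 ± 0.292, 58.8 ± 49.4 and 10.4 ± 4.97 CPM (SD, n = 4 each). The fitted log2 fold change was 5.25 (SE 0.68) for Vehicle against Sham, which 43 of the 17558 tested genes exceeded. It was -2.50 (SE 0.56) for LJP against Vehicle and 2.76 (SE 0.65) for LJP against Sham. The Vehicle mean rested strongly on mice 1 and 2, and the coefficient of variation was 84% in that group against 19% in Sham mice. Without Vehicle mouse 1 the Vehicle mean was 52.7 ± 58.6 CPM (SD, n = 3), and the log2 fold changes were 5.10 against Sham and -2.34 for LJP against Vehicle. Without Vehicle mouse 2 the Vehicle mean was 38.3 ± 33.8 CPM (SD, n = 3), and the log2 fold changes were 4.63 against Sham and -1.88 for LJP against Vehicle.

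Emp3 followed the same order of groups with a smaller range. Its levels were 1.67, 1.20, 1.75 and 1.35 CPM in the Sham mice, from 22 to 32 counts. They were 15.6, 23.9, 8.87 and 7.64 CPM in the Vehicle mice and 5.63, 4.14, 9.24 and 4.57 CPM in the LJP mice. All Vehicle mice, as in 20.7% of tested genes, and all LJP mice, as in 12.8%, were above all Sham mice. LJP mouse 3 was again the highest of its group and lay above Vehicle mice 3 and 4. Group means were 1.49 ± 0.263, 14.0 ± 7.44 and 5.89 ± 2.32 CPM (SD, n = 4 each). The log2 fold change was 3.23 (SE 0.39) for Vehicle against Sham, exceeded by 264 genes, -1.25 (SE 0.35) for LJP against Vehicle and 1.98 (SE 0.39) for LJP against Sham. Without Vehicle mouse 2 it was 2.84 against Sham and -0.86 for LJP against Vehicle, and without Vehicle mouse 1 it was 3.18 and -1.20.

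Pmp22, which encodes the myelin protein, was the member with the highest level per length in Sham brain and differed less between groups. It was at 18.5, 17.1, 17.9 and 18.3 CPM in the Sham mice, at 32.3, 64.7, 34.2 and 38.4 CPM in the Vehicle mice and at 35.6, 27.2, 37.0 and 27.2 CPM in the LJP mice. The Sham mice were nearly equal, with a coefficient of variation of 3.45%. All Vehicle mice, as in 20.7% of tested genes, and all LJP mice, as in 12.8%, lay above them. Vehicle mouse 2 stood above the other Vehicle mice, and of the other 3 Vehicle mice, mice 1 and 3 lay within the LJP range and mouse 4 just above it. The means were 17.9 ± 0.619, 42.4 ± 15.1 and 31.7 ± 5.28 CPM (SD, n = 4 each). The log2 fold changes were 1.24 (SE 0.20) for Vehicle against Sham, exceeded by 1681 genes, and 0.82 (SE 0.20) for LJP against Sham. For LJP against Vehicle the value was -0.42 (SE 0.20), and without Vehicle mouse 2 it was -0.14, with a Vehicle mean of 35.0 ± 3.14 CPM (SD, n = 3). Vehicle against Sham was 0.96 without Vehicle mouse 2, and without Vehicle mouse 1 the values were 1.35 against Sham and -0.53 for LJP against Vehicle.

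Emp2, the second of the family in level per length in Sham brain, had the smallest differences. Its levels were 20.1, 18.8, 17.1 and 20.2 CPM in the Sham mice, 23.5, 31.2, 24.2 and 27.7 CPM in the Vehicle mice and 25.5, 19.9, 22.1 and 18.3 CPM in the LJP mice. The Vehicle mice were all above the Sham mice, as in 20.7% of tested genes. The LJP mice overlapped both groups, with 2 of 4 above every Sham mouse and 3 of 4 below every Vehicle mouse. The means were 19.1 ± 1.45, 26.6 ± 3.55 and 21.5 ± 3.11 CPM (SD, n = 4 each). The log2 fold change was 0.48 (SE 0.12) for Vehicle against Sham, exceeded by 3953 genes, -0.31 (SE 0.12) for LJP against Vehicle and 0.17 (SE 0.12) for LJP against Sham. Without Vehicle mouse 1 it was 0.54 against Sham and -0.37 for LJP against Vehicle, and without Vehicle mouse 2 it was 0.39 and -0.23.

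**Figure D1:**
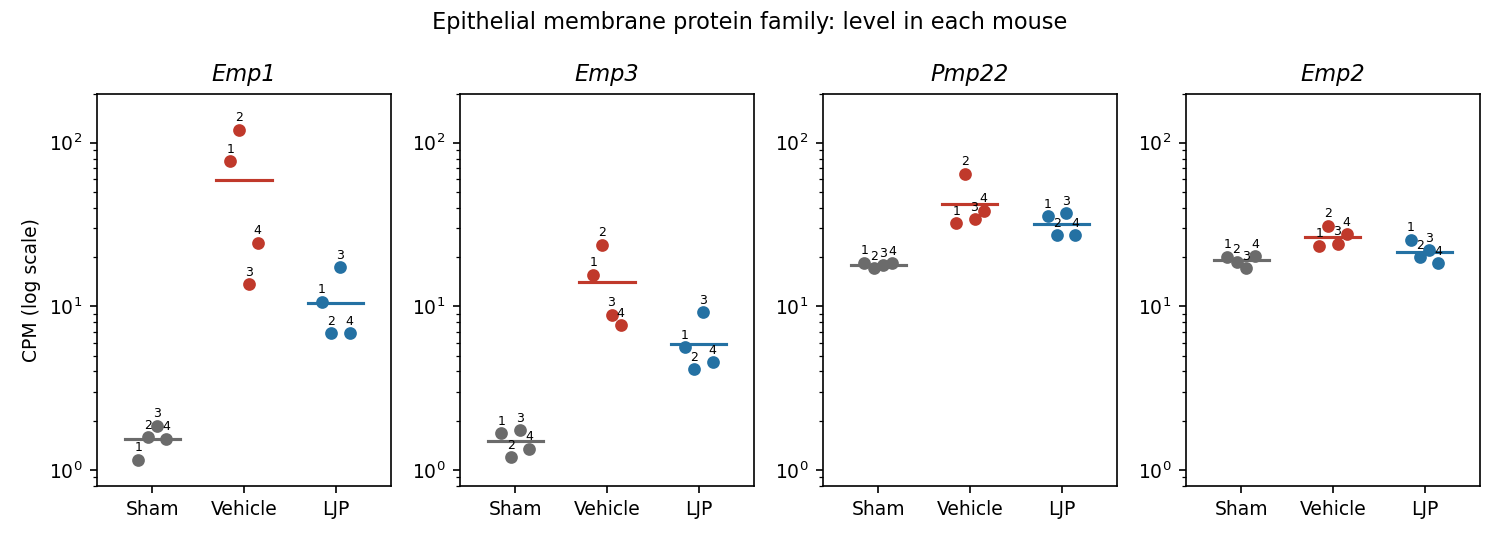
CPM of Emp1, Emp3, Pmp22 and Emp2 in each mouse on a log axis (points, numbered by mouse) with the group mean (line), for Sham, Vehicle and LJP. All Vehicle mice lie above all Sham mice in the 4 panels, as in 20.7% of all tested genes, and the LJP mice overlap the Vehicle mice in each, with Emp1 at 13.7 to 120.1 CPM in Vehicle mice.

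All 4 members were called higher in Vehicle than in Sham mice, where 39.9% of the tested genes were called and 22.7% were called higher. Between LJP and Vehicle, 0 of 4 members passed an adjusted p of 0.05 in edgeR, where 0.0228% of genes did. Of the 4 genes called there, 3 were airway and lung markers, lower in LJP mice, and the source of that difference between libraries was not tested. At an unadjusted p below 0.05 there were 3 members, among 5212 genes, and DESeq2 called 2 members, Emp1 and Emp3, among 2307 genes. The edgeR count was 2 without Vehicle mouse 3 or without Vehicle mouse 4, where 3857 and 2095 genes were called. Between LJP and Sham, Emp1, Emp3 and Pmp22 were called, where 4.75% of genes were called and 3.85% were called higher. The LJP against Sham calls of Emp1 and Pmp22 were lost without LJP mouse 1, without LJP mouse 3 and without any one Sham mouse. Log2 fold changes were then 2.40 to 2.86 for Emp1 and 0.74 to 0.84 for Pmp22, and 1 member was called, among 393 to 518 genes. Since the members were chosen from these contrasts, nothing is read from these counts. Vehicle and LJP are each set against the same Sham mice, and LJP and Sham against the same Vehicle mice, so that the 3 comparisons share mice.

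**Figure D2:**
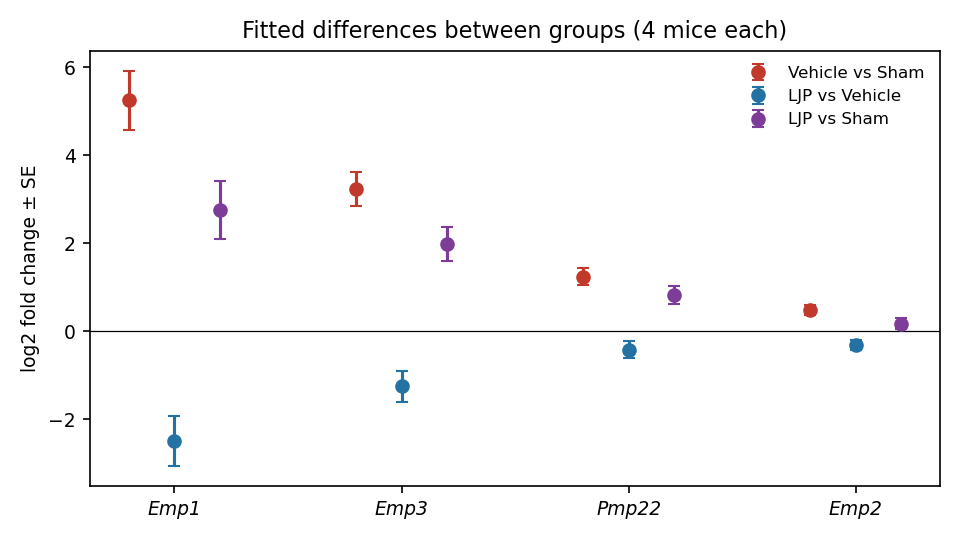
Fitted log2 fold change (point) with its standard error (bar) for each member in the 3 comparisons of 4 mice against 4. Vehicle against Sham runs from 0.48 in Emp2 to 5.25 in Emp1, and the LJP against Vehicle values lie below 0 for all members.

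Ratios of group means are set side by side here for comparisons that share the Vehicle mice. The ratio of Vehicle to Sham means was 38.3 for Emp1, 9.38 for Emp3, 2.37 for Pmp22 and 1.40 for Emp2. The LJP mean was 0.178, 0.421, 0.748 and 0.805 of the Vehicle mean in that order. Without Vehicle mouse 2 the Vehicle to Sham ratio was 25 for Emp1, and the LJP to Vehicle ratio was 0.272 for Emp1, 0.551 for Emp3, 0.908 for Pmp22 and 0.854 for Emp2, so that Pmp22 and Emp2 changed places. Of the difference between the Vehicle and Sham means, 15.5% was left in LJP mice for Emp1, 31.4% for Emp2, 35.2% for Emp3 and 56.4% for Pmp22. Without Vehicle mouse 2 these shares were 24.2%, 39.3%, 47.8% and 81%. The Emp2 share was 13.6% without LJP mouse 1 and 45.2% without LJP mouse 4, so its place in the order rested on single mice.

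Per length of gene, which allows levels of different genes to be compared, the family changed its makeup. In Sham mice Pmp22 was at 7.29 ± 0.252, Emp2 at 5.54 ± 0.421, Emp3 at 1.54 ± 0.271 and Emp1 at 0.476 ± 0.0903 CPM per kilobase (SD, n = 4), and this order held in each of the 4 mice. In Vehicle mice Emp1 reached 18.2 ± 15.3, Pmp22 17.3 ± 6.14, Emp3 14.4 ± 7.66 and Emp2 7.74 ± 1.03 CPM per kilobase (SD, n = 4). The first 3 of these did not differ beyond their spread, since Emp1 was above Pmp22 in 2 of 4 mice and Emp3 above Pmp22 in 1 of 4. In LJP mice the order was Pmp22 at 12.9 ± 2.15, Emp2 at 6.24 ± 0.903, Emp3 at 6.06 ± 2.38 and Emp1 at 3.23 ± 1.54 CPM per kilobase (SD, n = 4). There Emp2 and Emp3 did not differ beyond their spread, while Pmp22 was highest and Emp1 lowest in all 4 mice.

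Summed over the 4 genes, the family level was 14.1 to 15.4 CPM per kilobase in the Sham mice. It was 59.8, 97.1, 34.3 and 39.1 in Vehicle mice 1 to 4 and 31.0, 23.2, 36.3 and 23.2 CPM per kilobase in LJP mice 1 to 4. The share of Emp1 in this sum was 3.22 ± 0.685% in Sham mice, 27.4 ± 13.7% in Vehicle mice and 10.9 ± 2.68% in LJP mice (SD, n = 4). Emp2 took 37.3 ± 2.21%, 15.5 ± 5.94% and 22.4 ± 3.25% (SD, n = 4). The Emp3 share was 10.3 ± 1.70%, 24.7 ± 3.14% and 20.9 ± 3.63%, and the Pmp22 share was 49.1 ± 0.403%, 32.4 ± 9.32% and 45.9 ± 3.00% (SD, n = 4). Emp1 relative to Emp3, per length, was 1.48 and 1.52 in Vehicle mice 1 and 2, against 0.463 and 0.962 in Vehicle mice 3 and 4, 0.451 to 0.57 in the LJP mice and 0.207 to 0.397 in the Sham mice. The Emp1 share was 39.8% and 38.3% in Vehicle mice 1 and 2, the pair with the high neutrophil marker level, and 12.3% and 19.3% in Vehicle mice 3 and 4.

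**Figure D3:**
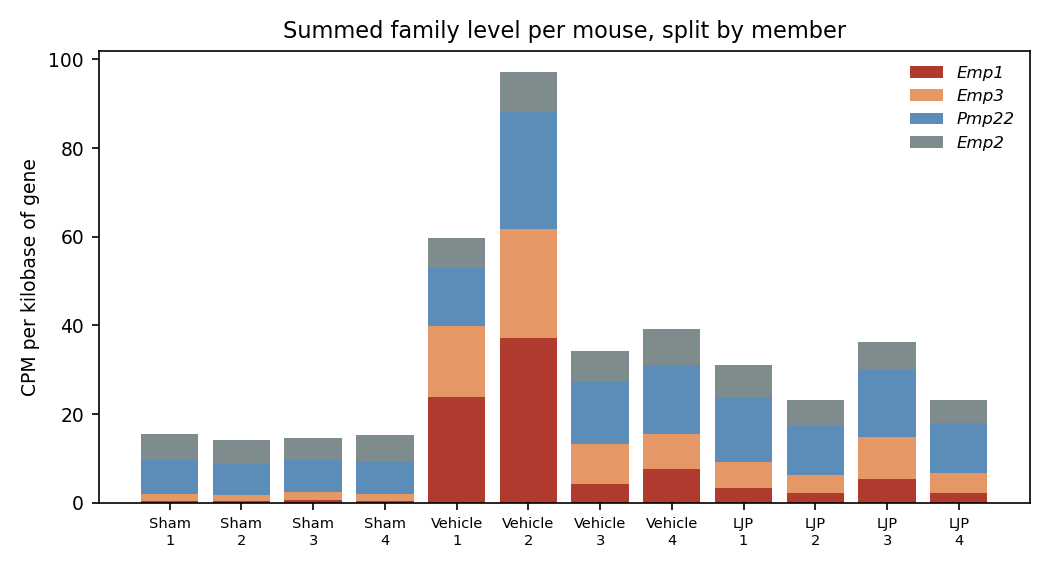
CPM per kilobase of the 4 members stacked for each mouse, from 0, with 1 bar per mouse and 1 colour per member. The sum is 14.1 to 15.4 in Sham mice and highest in Vehicle mouse 2 at 97.1, where Emp1 takes more of the bar than in any Sham or LJP mouse.

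The genes around the family were described from lists written by role, with the members left out. All 11 genes of the A2 list rose in Vehicle mice, where 22.7% of all tested genes were called higher. Their median was 3.55 on the log2 scale against 3.54e-05 over all tested genes. The count was 10 without Vehicle mouse 2 and 10 with the replicate number as a block. The summed level of the list was 15.2 and 16.1 times the Sham mean in Vehicle mice 1 and 2 and 4.14 and 5.72 times in Vehicle mice 3 and 4. Tgm1, a transglutaminase of that list, rose from 0.487 ± 0.194 to 126.7 ± 73.0 CPM (SD, n = 4), a log2 fold change of 8.0 (SE 0.54, adjusted p = 1.54e-05), and the cytokine gene Clcf1 rose by 3.85 and the annexin partner gene S100a10 by 1.75 on the log2 scale. With Emp1 added, Emp1 was the third largest of 12 in Vehicle against Sham and had the second lowest value of 12 in LJP against Vehicle.

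All 13 genes of the pan-reactive list rose as well, with a median of 3.6, where 22.7% of all tested genes were called higher in Vehicle mice. Serpina3n, a secreted protease inhibitor, rose by 5.71, Gfap, the astrocyte intermediate filament, by 3.87 and Cd44, a hyaluronan receptor, by 4.82 (edgeR, adjusted p from 1.54e-05 to 4.62e-05). Of 11 A1 genes 10 rose, with a median of 1.96, among them Ggta1 by 2.85, the immunoproteasome subunit Psmb8 by 2.57 and the class I histocompatibility gene H2-D1 by 2.28. In Vehicle mice 1 to 4 the summed pan-reactive level was 16.7, 28.1, 12.4 and 15.2 times the Sham mean. The summed A1 level was 3.93, 5.88, 1.98 and 2.28 times. The A2 and A1 genes thus rose side by side, and no test of a difference between the lists was made. The median log2 fold changes for LJP against Vehicle were -1.44, -1.38 and -1.06 for the A2, pan-reactive and A1 lists, against -0.00174 over all genes. In that comparison edgeR called 0 genes of the 3 lists, and 9, 11 and 9 had an unadjusted p below 0.05, beside 5212 of the 17558 genes. DESeq2, run on all genes of the table, called 7, 10 and 7, beside 2307 genes in all. Without Vehicle mouse 3 edgeR called 9, 11 and 8 of them, beside 3857 genes in all. Without Vehicle mouse 4 it called 7, 11 and 5, beside 2095 genes in all. Against Sham, 6, 8 and 3 genes of the 3 lists were higher in LJP mice, where 3.85% of all tested genes were higher. The A2 count was 3 without any one Sham mouse or without LJP mouse 3, and the A1 count was 1 without Sham mouse 3 and 5 without Vehicle mouse 2 or 3.

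Among the claudins and the other relatives with 4 membrane spans, some genes rose and others fell. Of 19 claudin genes 12 were tested, of which 3 rose and 2 fell in Vehicle mice, with a median of 0.17. These counts are close to the 22.7% of all tested genes that were higher and the 17.3% that were lower. Cldn5, the claudin of brain endothelium and also one of the endothelial markers summed here, rose from 42.6 ± 3.25 to 170.2 ± 125 CPM (SD, n = 4), a log2 fold change of 2.00 (SE 0.38, edgeR adjusted p = 0.00197). Cldn11, the claudin of oligodendrocyte myelin, rose by 0.94 (adjusted p = 0.000442), whereas Cldn12 fell by 0.36 (adjusted p = 0.0169). The count of claudins called was 2 without Sham mouse 3 and 3 without Vehicle mouse 1. Of 16 other relatives 12 were tested, and 7 fell and 1 rose, with a median of -0.52, where 17.3% of all tested genes were lower. Cacng4, an auxiliary subunit of AMPA receptors, fell by 1.20, Gsg1l, another auxiliary subunit of AMPA receptors, by 1.03 and Tmem114 by 1.48 on the log2 scale (edgeR, adjusted p from 0.00172 to 0.00437). The summed level of the relatives was 0.62, 0.481, 0.802 and 0.803 of the Sham mean in Vehicle mice 1 to 4, and that of the neuron markers was 0.796, 0.599, 0.933 and 0.902, and their part in these falls was not tested. In LJP against Vehicle the medians were -0.49 for the claudins and 0.25 for the relatives, edgeR called 0 genes of either list, 2 and 6 had an unadjusted p below 0.05, and DESeq2 called 1 and 0. Without Vehicle mouse 3 edgeR called 2 and 3, and without Vehicle mouse 4 it called 1 and 2, beside 3857 and 2095 genes in all. In LJP against Sham 1 gene of each list was called higher and none lower, where 0.9% of tested genes were lower. Without Vehicle mouse 2 those counts were 2 and 5, and the count of relatives was 2 without Vehicle mouse 4 and 0 without any one Sham or LJP mouse.

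Of 13 genes described as binding or handling the family's proteins, 7 rose and none fell in Vehicle mice, with a median of 0.44, where 22.7% of all tested genes were higher and 17.3% were lower. P2rx7, which encodes the ATP-gated receptor bound by EMP proteins, rose from 8.35 ± 0.818 to 18.5 ± 5.46 CPM (SD, n = 4), a log2 fold change of 1.15 (SE 0.22, edgeR adjusted p = 0.00223). The integrin genes Itgb3, Itga6 and Itgb1 rose by 1.86, 1.53 and 1.51, and Cav1, the caveolin of endothelial caveolae, rose by 1.36 (edgeR, adjusted p from 0.000536 to 0.0165). Itgb1 was at 174 ± 106 CPM and Cav1 at 23.7 ± 18.1 CPM in the Vehicle mice (SD, n = 4). The summed level of the list was 1.15, 1.55, 1.1 and 1.14 times the Sham mean in Vehicle mice 1 to 4, and that of the endothelial markers was 3.09, 6.78, 1.38 and 1.67 times, and their part in these rises was not tested. For LJP against Vehicle the log2 fold change was -0.34 (SE 0.22) for P2rx7, -0.99 (SE 0.26) for Itgb3, -0.78 (SE 0.27) for Itga6, -1.0 (SE 0.32) for Itgb1 and -1.30 (SE 0.39) for Cav1. None of the 13 was called by edgeR there, 6 had an unadjusted p below 0.05 and DESeq2 called 5. Without Vehicle mouse 3 edgeR called 6, and without Vehicle mouse 4 it called 4, beside 3857 and 2095 genes in all. In LJP against Sham the count was 0 in edgeR, 3 at an unadjusted p below 0.05 and 2 in DESeq2, and in edgeR it was 3 without Vehicle mouse 2 and 1 without Vehicle mouse 1 or LJP mouse 4.

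**Figure D4:**
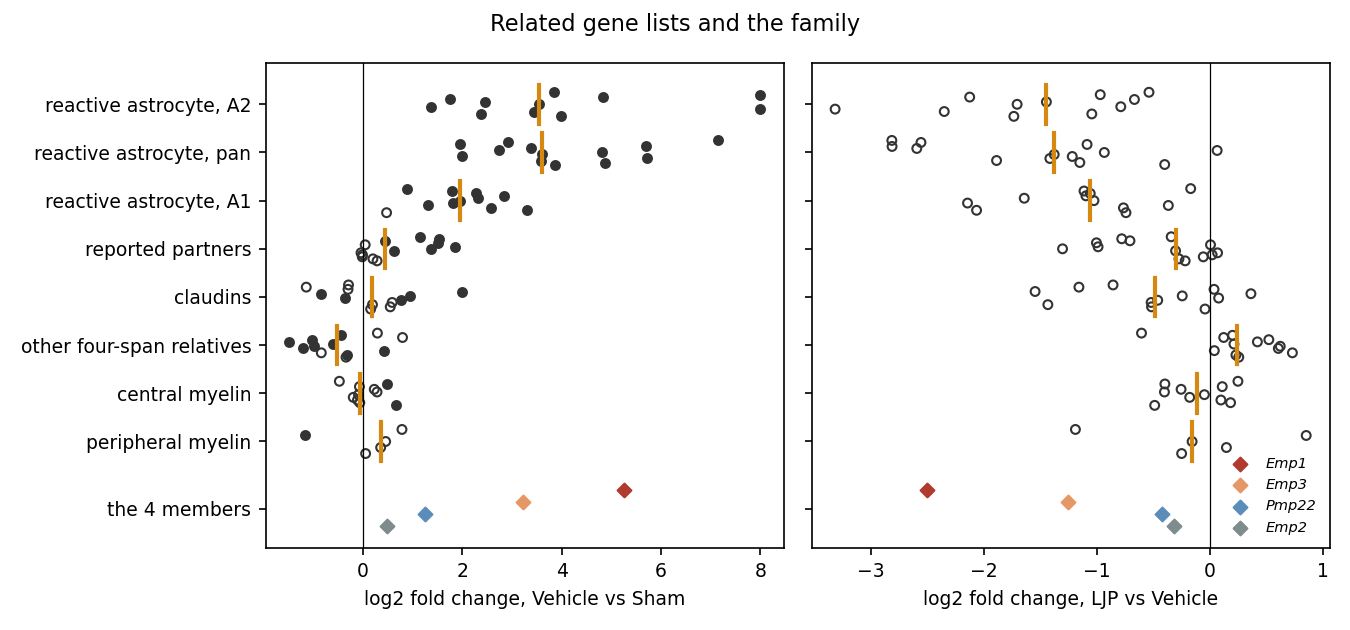
Log2 fold change of each tested gene (circle, filled where the edgeR adjusted p is below 0.05) in 8 role lists with the list median (orange bar), and of the 4 members (diamonds), for Vehicle against Sham (left) and LJP against Vehicle (right). The reactive astrocyte lists lie to the right of 0 in the left panel, with medians of 1.96 to 3.6, and the other four-span relatives lie mostly to the left.

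Prx, which encodes periaxin of myelinating Schwann cells and is also expressed by endothelium, had 43 to 61 counts in the Sham mice, 37 to 194 in the Vehicle mice and 30 to 43 in the LJP mice. Pmp2 and Foxd3, named after their values were seen, were below the floor in the mean of each group. Of 8 peripheral myelin genes 5 were tested and 1 was called, lower, where 17.3% of all tested genes were lower. Egr2, a transcription factor of Schwann cells that neurons also express, fell by 1.17 on the log2 scale (edgeR adjusted p = 0.0244), and the count of calls in the list was 0 without Sham mouse 1, 2 or 4 and 2 without Vehicle mouse 3 or 4. Of 10 central myelin genes 2 rose, the oligodendrocyte transcription factor Myrf by 0.66 and Mobp by 0.49 (edgeR, adjusted p = 0.00581 and 0.017), with a median of -0.07 over the list, a share near the 22.7% of all tested genes that were higher. That count was 1 without Sham mouse 1 and 4 without Vehicle mouse 3. In LJP against Vehicle edgeR called 0 genes of either myelin list, 3 and 3 had an unadjusted p below 0.05, and DESeq2 called 2 and 2. Without Vehicle mouse 3 edgeR called 2 and 3, and without Vehicle mouse 4 it called 1 and 3, beside 3857 and 2095 genes in all. In LJP against Sham edgeR called 0 of either, 2 and 1 had an unadjusted p below 0.05, and DESeq2 called 0 and 0.

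Markers of some other cell types were highest in Vehicle mouse 2, as the members were. Endothelial markers (10 genes, none at 0 in a group) summed to 253 to 271 CPM in Sham mice, to 803, 1760, 359 and 434 CPM in Vehicle mice 1 to 4, and to 248 to 326 CPM in LJP mice. Fibroblast and meningeal markers (10 genes) were 202 to 229 CPM in Sham mice, 258, 1660, 313 and 415 CPM in Vehicle mice 1 to 4 and 187 to 277 CPM in LJP mice. Vehicle mouse 2, the mouse with the highest level of all 4 members, was thus also the highest in both lists. Vehicle mouse 1 was second highest in endothelial but lowest in fibroblast markers. It was second highest in Emp1 and Emp3 and lowest in Pmp22 and Emp2. In LJP mice the endothelial and fibroblast sums were 0.954 to 1.25 and 0.864 to 1.28 times the Sham mean, and Emp1 was 4.45 to 11.3 times.

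Monocyte and macrophage markers (8 genes) were 31.6 to 40.7 CPM in Sham mice, 182, 362, 90.1 and 140 CPM in Vehicle mice 1 to 4 and 91.7, 48.7, 129 and 50.7 CPM in LJP mice 1 to 4. Their order within LJP mice, mouse 3 then mouse 1 above the others, was that of Emp1, Emp3 and Pmp22. The endothelial, fibroblast, pericyte and smooth muscle, pan-reactive and A1 lists also had mouse 3 then mouse 1 on top, so this order was not particular to macrophage markers. The neutrophil list (8 genes, none with enough counts to be tested) was at 0.272 to 0.519 CPM in Sham mice, with 3 of its genes at 0, and at 0.306 to 1.11 CPM in LJP mice. Microglia markers (8 genes) were 308 to 313 CPM in Sham mice, 415 to 847 CPM in Vehicle mice and 516 to 868 CPM in LJP mice. They were lowest among the Vehicle mice in mouse 1, where Emp1 and Emp3 were second highest and Pmp22 and Emp2 lowest. In LJP mice 1 to 4 they were 868, 516, 868 and 528 CPM, with mice 1 and 3 highest, as for all 4 members. Pericyte and smooth muscle markers (9 genes) were 241 to 258, 268 to 509 and 235 to 294 CPM in the 3 groups. The part of these cell types in the member levels was not tested.

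For Emp2, which is abundant in lung, airway and lung epithelial markers (10 genes) were also summed. They reached 15 to 17.9 CPM in Sham mice, 12.5 to 19 CPM in Vehicle mice and 4.04 to 7.06 CPM in LJP mice, where 6 of the 10 were at 0. Scgb1a1, the secretoglobin of airway club cells, had 93 to 113 counts in the Sham mice, 79 to 123 counts in the Vehicle mice and 0 in all 4 LJP mice. Sftpc, the surfactant gene of alveolar type 2 cells, had 7 to 81, 44 to 64 and 7 to 12 counts, and Ager, of alveolar type 1 cells, had 7 to 19, 16 to 101 and 10 to 17 counts. The part of such RNA in the Emp2 counts of 313 to 727 per mouse was not tested.

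**Figure D5:**
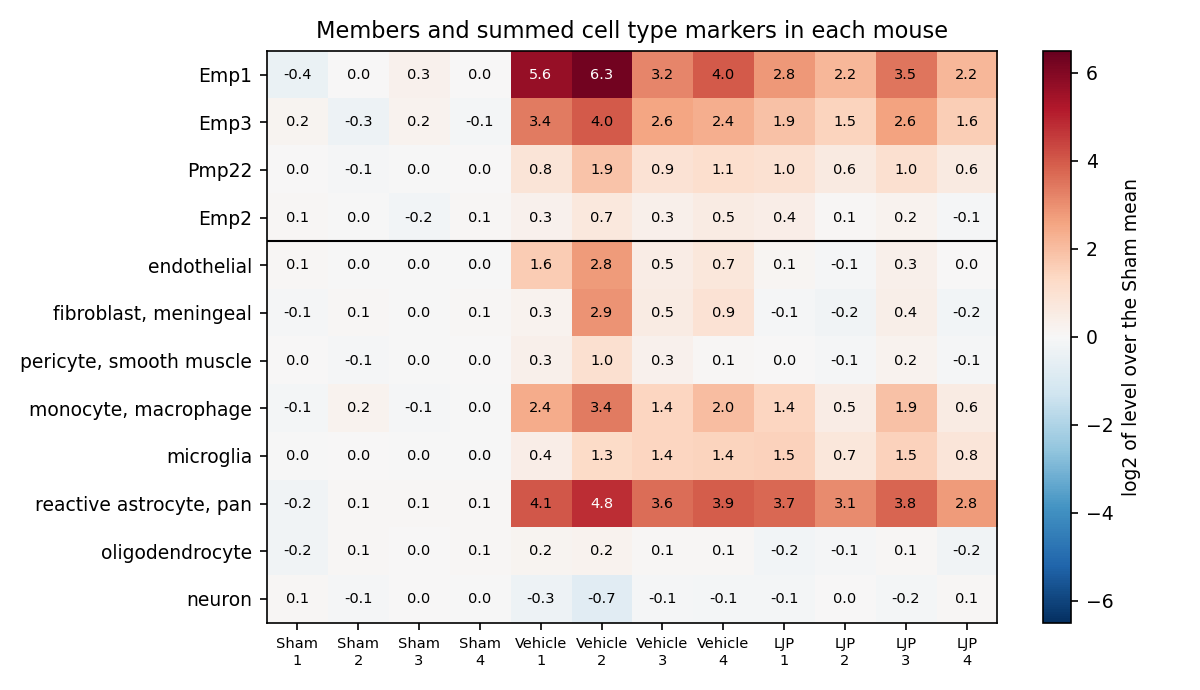
Log2 of the level in each mouse over the Sham mean for the 4 members (top) and the summed CPM of 8 cell type lists (below), coloured from blue (lower) to red (higher) with the value printed. Vehicle mouse 2 has the highest value of each member and of the endothelial list at 1760 CPM, while the oligodendrocyte row stays close to 0.

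The genes whose pattern was most like that of each member were ranked by Pearson r of log2 CPM over the 12 mice. Because the tMCAO mice lie apart from the Sham mice in each member except Emp2 and all genes share the 12 libraries, these values are descriptions of likeness only. Closest to Emp1 were the actin-binding gene Cnn3 (r = 0.996), the annexin Anxa2, the chromatin protein Hmga1, the metallothionein Mt2 and the membrane linker Msn (r = 0.994). Closest to Emp3 were the leukocyte metalloprotease Adam8 (r = 0.996), Trim47, S100a11, the Fc receptor Fcgr3 and Tagln2 (r = 0.991). Closest to Pmp22 were the replication clamp Pcna (r = 0.991), Tacc3, Tcirg1, Anxa4 and Ankrd44 (r = 0.983). For Emp2 the values were lower, from Tmem109 (r = 0.947) through Tspan32, Ddx58 and Rps29 to Oat (r = 0.939). By Spearman rho, 1 of the 5 genes stayed among the closest 5 for Emp1 and for Emp3 and 0 of 5 for Emp2 and for Pmp22. Among the members themselves r was 0.98 between Emp1 and Emp3, 0.942 between Emp3 and Pmp22, 0.923 between Emp1 and Pmp22 and 0.783 to 0.877 between Emp2 and the others.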

How the data were processed

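RNA was sequenced from ischemic hemispheres of 12 mice, as poly(A)-selected libraries. The authors deposited raw counts per gene and mouse, without normalization, and the submitters' processing notes name featureCounts and DESeq2 and the builds GRCm39 and mm10, with no role given. Gene positions in the table match GRCm38 (mm10). The aligner, strand setting and handling of shared reads are not given in the sources used here. Groups and replicate numbers came from the sample labels, which number 4 replicates per group, each of a mouse brain, and do not state that they are separate animals. By the labels alone, the spread between samples that p-values measure may be technical. The study's methods give ischemic hemispheres with n = 4 per group.

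Counts of all 12 mice were fitted with edgeR 4.0.16 (R 4.3.3) by filterByExpr, TMM and the quasi-likelihood test with a coefficient per group. P-values were adjusted over all 17558 genes by Benjamini-Hochberg, with calls below 0.05. The same kind of fit was tried on simulated data for Vehicle against Sham only. Those data had the same variability in all genes and groups, unlike the data here. CPM are counts scaled to the TMM library size, per kilobase with the gene lengths of the table. Log2 CPM used a prior count of 2. Alternatives were DESeq2 1.42.0, RLE or library size scaling, no filter, 2 groups only, a replicate block, the study's thresholds (absolute log2 fold change over 0.58 and p below 0.01) and leaving out each mouse. Plots used matplotlib 3.10.9. Total counts per mouse were 17960353 to 22216315, and no 2 libraries of a group agreed within sampling noise (chi-square per degree of freedom at least 2.54).

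The members, lists and tests were chosen with earlier results of these data known. Genes named were the 4 members, up to 3 genes per role list with the smallest Vehicle against Sham p among those called, Tgm1, P2rx7, Itgb1, Itga6 and Cav1, the 5 genes most like each member, neighbouring genes, and single markers of the lung and Schwann cell lists. Protein sequences were not used here, and 1 gene of the rule is not reported here.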

Additional observations from a re-analysis of the deposited data

How the results depend on the processing

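The members, chosen for these differences, stayed higher in Vehicle than Sham under every alternative run, and 4 were called except at the study's thresholds, where Emp2 was not and 3 were. Log2 fold changes ran from 4.63 to 5.58 for Emp1, 0.392 to 0.54 for Emp2, 2.84 to 3.43 for Emp3 and 0.957 to 1.35 for Pmp22 when single mice were left out. No member changed sign in any comparison. For LJP against Vehicle these ranges were -2.85 to -1.88, -0.406 to -0.227, -1.55 to -0.864 and -0.53 to -0.139, and for LJP against Sham 2.40 to 2.91, 0.0751 to 0.238, 1.68 to 2.11 and 0.743 to 0.892. The cause of the shifts given here was not tested.

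Leaving out single mice gave 5285 to 8200 genes and 4 to 4 members called for Vehicle against Sham, 3 to 3857 genes and 0 to 2 members for LJP against Vehicle, and 393 to 2357 genes and 1 to 3 members for LJP against Sham. In Vehicle against Sham the lists with moved counts ran from 2 to 5 for claudins, 0 to 2 for peripheral and 1 to 4 for central myelin genes. In LJP against Vehicle they ran from 0 to 9 for the A2, 0 to 11 for the pan-reactive, 0 to 8 for the A1, 0 to 2 for the claudin, 0 to 3 for the relatives, 0 to 6 for the partner, 0 to 2 for the peripheral and 0 to 3 for the central myelin list. In LJP against Sham they ran from 3 to 7 for the A2, 1 to 5 for the A1, 1 to 2 for the claudin, 0 to 5 for the relatives and 0 to 3 for the partner list.

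The study's thresholds gave 3807 genes and 3 members for Vehicle against Sham, and 1223 genes and 2 members for LJP against Vehicle. With no filter, LJP against Vehicle gave 593 genes, 1 member (Emp1) and, in the A2, pan-reactive, A1, claudin and partner lists, 6, 7, 2, 1 and 1 genes, and LJP against Sham gave 5 A1 genes, 0 relatives and 1 partner. DESeq2 gave 2307 genes and 2 members for LJP against Vehicle, with 7 A2, 10 pan-reactive, 7 A1, 1 claudin, 5 partner, 2 peripheral and 2 central myelin genes, and 1454 genes for LJP against Sham, with 5 A1 genes, 2 relatives and 2 partners. The fits of 2 groups gave 3 claudins for Vehicle against Sham, 2 genes for LJP against Vehicle, and for LJP against Sham 4043 genes, with 8 A1 genes, 4 claudins, 7 relatives, 5 partners, 2 peripheral and 1 central myelin genes.

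Mice with the same replicate number deviated together with r over 0.1 in 1 of 12 pairs of groups (r from -0.322 to 0.114), so the numbers were not taken to pair the mice. With the replicate block, 6110 genes and 4 members were called for Vehicle against Sham, 2 genes and 0 members for LJP against Vehicle, and 464 genes and 1 member (Emp3) for LJP against Sham, with 3 A2 genes and 0 relatives. The depth limits Emp1 and Emp3 most in Sham mice, where they had 20 to 34 and 22 to 32 counts per mouse.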
